A study of Drosophila melanogaster with 6 samples.

Results

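The genes that make, arrange, deacetylate, bind and cut chitin were followed in whole *Drosophila melanogaster* embryos aged 16-20 h. They were taken from the table of gene counts by name alone, as every gene called *Cht*, *obst-*, *Idgf* or *Cda* with its number or letter, together with *kkv*, *knk*, *rtv*, *serp*, *verm*, *Gasp* and *mmy*. This gave 34 of the 17208 genes in the table. The mutant embryos carried the allele pair *ft fd5-5/ft X13*, which the series describes as null for the cadherin gene *fat* (*ft* null, n = 4 libraries). The embryos they were set against were *w1118*, used as the wild type, a strain that lacks part of the *white* eye pigment gene (n = 2 libraries). Embryos of both genotypes were collected and aged on grape agar plates at 25 °C. How mutant embryos were told from their siblings, and how many embryos entered a library, is not given in the sources used here.

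Chitin is a polymer of N-acetylglucosamine. It is spun out at the apical surface of the epidermis and of the tracheal tubes, where it stiffens the cuticle and, earlier in the embryo, fills the tracheal lumen as a temporary cable that shapes the tube. Chitin synthase takes UDP-N-acetylglucosamine from the cytoplasm, membrane-anchored helpers arrange the fibres, secreted deacetylases and chitin-binding proteins give the matrix its texture, and chitinases cut it. The late embryo builds the cuticle of the first larva. The *Idgf* genes encode secreted relatives of chitinases that lack the catalytic residue and are known as growth factors for imaginal disc cells.

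Libraries held 21261928 to 29151981 estimated counts in *ft* null and 22217098 to 29131506 in *w1118*. The 34 genes made up 2.17%, 2.08%, 1.86% and 1.93% of all counts in *ft* null replicates 1 to 4, against 1.55% and 1.72% in *w1118* replicates 1 and 2. The *ft* transcript was still present in the mutants, at a mean of 30.1 CPM (SD 1.63, n = 4), against 44.8 CPM in *w1118* (SD 2.17, n = 2). CPM here is the depth-scaled count with edgeR's TMM factors. Genotype and strain vary together, as do genotype and any difference in stage within the 16-20 h window, so none of these can be told apart for any gene below. In RNA of whole embryos, fewer cells of a type and less RNA per cell cannot be told apart either. Markers were fixed for epidermis, trachea, midgut, fat body, hemocytes, neurons and somatic muscle. Apart from the tracheal marker *dys*, which matched no symbol, 0 of them were at 0 reads in all 6 libraries. The midgut marker *betaTry* and the fat body marker *Lsp1beta* were near the floor. Their means were 0.104 and 0.149 CPM in *ft* null and 0.101 and 0.150 CPM in *w1118*.

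Set per length of exon, the transcripts spanned a wide range, and the tracheal and epidermal matrix genes led. *verm* and *serp*, which encode secreted chitin deacetylases that limit the length of tracheal tubes, had mean levels of 1610 and 1223 CPM per kb in *ft* null and 1106 and 991 CPM per kb in *w1118*. *Gasp*, which encodes a chitin-binding protein of the tracheal lumen and cuticle, was at 1264 CPM per kb in *ft* null and 898 CPM per kb in *w1118*. These 3 genes gave between 45.0% and 52.0% of the CPM of all 34 in every library. *Idgf4*, *Idgf6* and *obst-A* came next by the median over the 6 libraries, at 821, 698 and 428 CPM per kb. In all, 12 genes had a median of at least 100 CPM per kb. At the low end, *Cht4*, *obst-I*, *Cht8*, *Cht12* and *obst-G* had medians under 1 CPM per kb. With the longest transcript as the length in place of all exons, 12 of the 34 genes changed rank, by at most 4 places, and *Gasp* led.

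**Figure D1:**
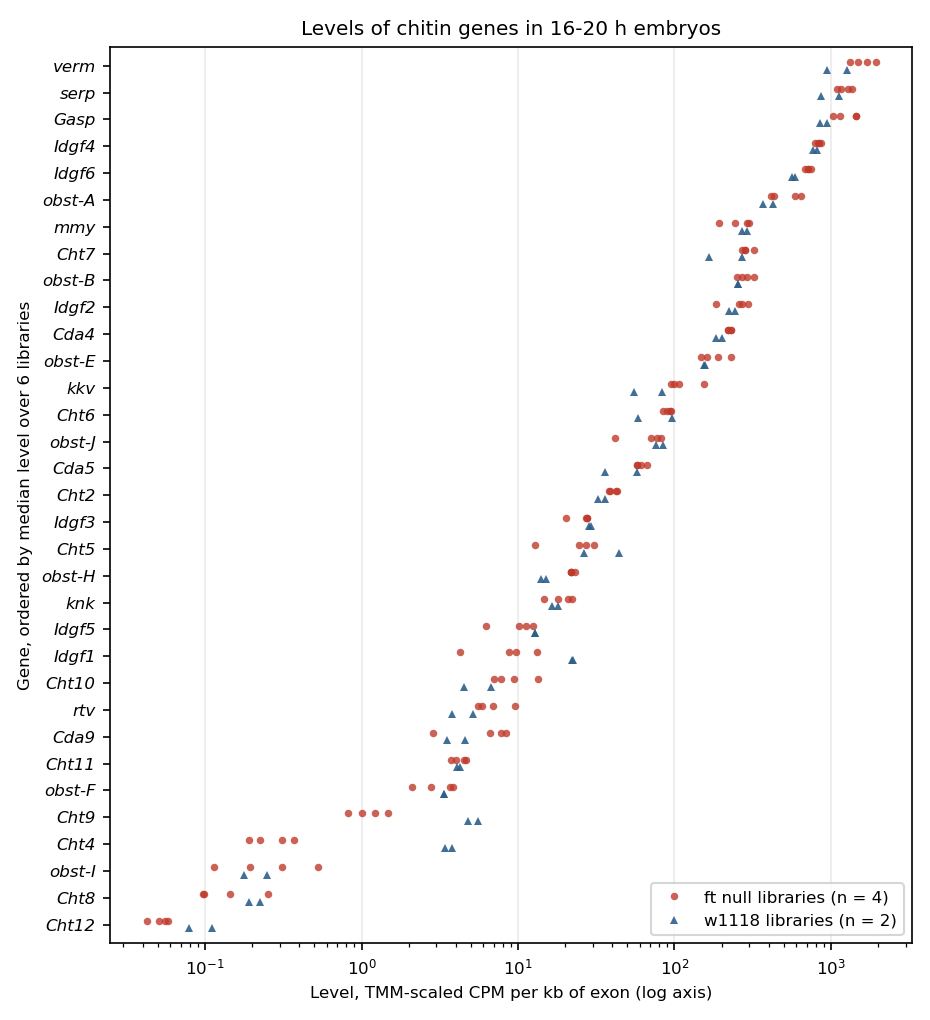
Level of each chitin gene in each library, in TMM-scaled CPM per kb of exon on a log axis, with *ft* null libraries as red circles (n = 4) above *w1118* libraries as blue triangles (n = 2). *obst-G*, with a median of 0, is not drawn. *Cht4* and *Cht9* are the genes whose circles lie far to the left of their triangles, and *verm*, *serp* and *Gasp* hold the top of the order.

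The comparison of *ft* null with *w1118* asks which of these transcripts differ between embryos of the 2 genotypes. Of the 34 genes, 30 passed the filter on low counts and entered the test over 11542 genes, and *Cht8*, *Cht12*, *obst-G* and *obst-I* did not. *Cht4* and *Cht9* fell and *obst-H* rose in *ft* null by edgeR's quasi-likelihood test (Benjamini-Hochberg adjusted p under 0.05). The 2 genes lower in *ft* null stand against a background of 2.15% of all tested genes called lower, and the 1 gene higher against 2.15% called higher. At an unadjusted p under 0.05, 7 of the 30 were higher and 3 lower in *ft* null, against 9.92% and 10.2% of all tested genes. DESeq2 called 2 higher and 3 lower (background 4.48% and 3.92%), and limma voom 1 higher and 2 lower (background 2.21% and 2.33%). The 4 mutant values lay above both *w1118* values for 10 genes and below both for 5, against 15.1% and 16.4% of all tested genes. The log2 fold change was above 0 for 21 of the 30, against 51.9% of all tested genes, and its median was 0.22, against 0.01 over all genes tested. These counts cover the genes that passed the filter and describe them, without a test of the group.

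**Figure D2:**
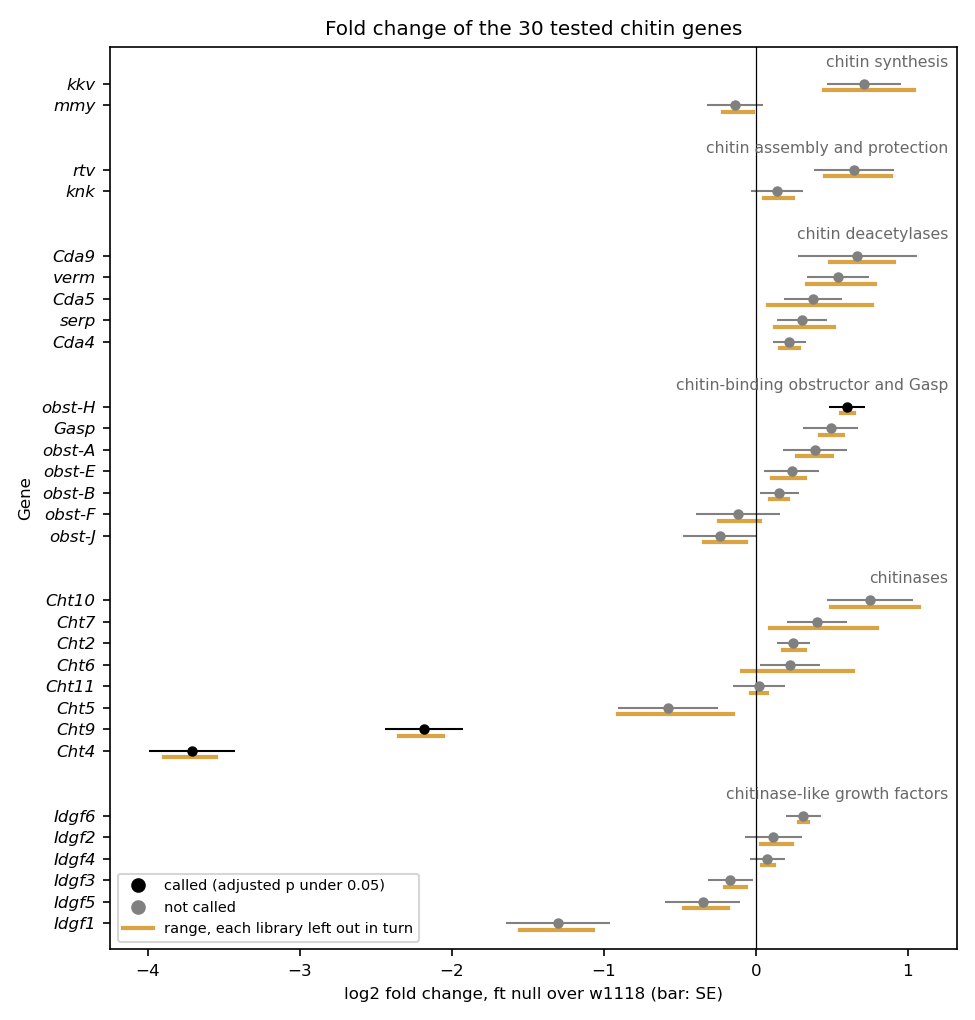
Fitted log2 fold change of *ft* null over *w1118* for the 30 tested genes by role, with bars for the standard error, black for called genes and grey for the others. The ochre line under each gene spans the values obtained when each of the 6 libraries was left out in turn. *Cht4* at -3.71 and *Cht9* at -2.18 stand apart from the other chitinases, and *obst-H* at 0.60 has a short bar.

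The enzymes of synthesis did not pass in edgeR, and the synthase and the supplier of its substrate had different values. *kkv* encodes the chitin synthase of cuticle and trachea (FBgn0001311, dm6 3R from 5378093 to 5392866, minus strand). It was at 875, 570, 611 and 542 CPM in *ft* null replicates 1 to 4, against 317 and 475 CPM in *w1118* replicates 1 and 2. All 4 mutant libraries lay above both *w1118* libraries, with replicate 1 far above the other mutants, and the log2 fold change was 0.71 (SE 0.244). It missed the threshold in edgeR (adjusted p = 0.152) and passed it in DESeq2 (adjusted p = 0.0445). The log2 fold change was 0.45 without *w1118* replicate 1 and 1.04 without *w1118* replicate 2.

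*mmy* encodes the pyrophosphorylase that makes UDP-N-acetylglucosamine, the substrate of the synthase (FBgn0259749, 2L from 6468538 to 6473904, minus strand). It was at 424, 638, 534 and 657 CPM in *ft* null, against 595 and 643 CPM in *w1118*. The genotypes overlapped (log2 fold change -0.13, SE 0.184, edgeR adjusted p = 0.737). Replicate 1 was the lowest of the mutants here and the highest for *kkv*. Within a library, the ratio of *kkv* to *mmy* reads was 2.06, 0.893, 1.14 and 0.825 in *ft* null replicates 1 to 4, against 0.532 and 0.739 in *w1118*. The gene pairs for this ratio and for those below were picked singly, and none of these ratios was tested.

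The helpers of chitin assembly were expressed at lower levels and did not pass. *knk* encodes a membrane-anchored protein that organises chitin fibres and, as shown in the beetle Tribolium, shields them from chitinases. It was at 59.6, 39.2, 55.7 and 48.1 CPM in *ft* null, against 44.0 and 48.0 CPM in *w1118*, and the genotypes overlapped (log2 fold change 0.14, SE 0.171). An antisense RNA covers 64.0% of the exon length of *knk*. It held 6 to 11 reads per library, and the kit does not mark strand, so its reads and those of *knk* cannot be told apart. *rtv*, which encodes a small membrane-anchored protein needed for the same fibre organisation, was at 12.3, 8.81, 7.12 and 7.51 CPM in *ft* null, against 6.53 and 4.81 CPM in *w1118*. The mutant libraries lay above both *w1118* libraries, by a narrow margin for replicate 3 (log2 fold change 0.65, SE 0.265, edgeR adjusted p = 0.228). The exons of *rtv* share 8.56% of their length with *Lint-1* on the other strand, a gene with a mean of 21.2 CPM in *ft* null (SD 3.58, n = 4) and of 19.5 CPM in *w1118* (SD 2.05, n = 2).

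The deacetylases included the most abundant chitin transcripts of the embryo. All 5 had log2 fold changes above 0, from 0.22 for *Cda4* to 0.67 for *Cda9*, against 51.9% of all tested genes above 0. Without *w1118* replicate 1 they ran from 0.08 for *Cda5* to 0.49 for *Cda9*. Without *w1118* replicate 2 they ran from 0.29 for *Cda4* to 0.87 for *Cda9*. Of the 5, 0 passed in edgeR, DESeq2 or limma voom. At an unadjusted p under 0.05 in edgeR, 1 was higher, against 9.92% of all tested genes. That gene was *verm* (FBgn0261341, 3L from 19690033 to 19695260, minus strand). It was at 4568, 4001, 3133 and 3552 CPM in *ft* null replicates 1 to 4, against 2221 and 3018 CPM in *w1118*. Every mutant library was above both *w1118* libraries, though *ft* null replicate 3 was close to *w1118* replicate 2 (log2 fold change 0.54, SE 0.202, edgeR adjusted p = 0.184).

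*serp* lies 5.72 kb from *verm* on the same strand with 0 genes between them. It was at 3440, 3270, 2786 and 2938 CPM in *ft* null, against 2184 and 2852 CPM in *w1118*, where *w1118* replicate 2 lay within the range of the mutants (log2 fold change 0.30, SE 0.164, edgeR adjusted p = 0.347). The ratio of *verm* to *serp* reads within a library, which does not depend on the scaling, was 1.33, 1.22, 1.12 and 1.21 in *ft* null, against 1.02 and 1.06 in *w1118*. The genotypes did not overlap in that ratio, which was chosen after its values were seen and was not tested. Within 20 kb of the 2 genes, 2 other genes were tested, with log2 fold changes of -0.32 and 0.61. Of these, 0 passed in edgeR, DESeq2 or limma voom. At an unadjusted p under 0.05 in edgeR, 1 was higher and 1 lower, against 9.92% and 10.2% of all tested genes.

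The other deacetylases, *Cda4*, *Cda5* and *Cda9*, are named for the same enzyme domain. *Cda4* averaged 434 ± 9.69 CPM in the 4 mutants and 372 ± 22.0 CPM in the *w1118* pair (mean ± SD, as for the values below). *Cda5* was at 656 ± 43.3 CPM in *ft* null and 505 ± 166 CPM in *w1118*, the wide spread coming from 387 CPM in *w1118* replicate 1 and 622 CPM in replicate 2. *Cda9*, the least abundant, was at 4.70, 10.9, 12.7 and 13.8 CPM in *ft* null, against 5.78 and 7.52 CPM in *w1118*. Its replicate 1 value lay below both *w1118* libraries and the other 3 above them. Without that library *Cda9* passed the test, with a log2 fold change of 0.91 (edgeR adjusted p = 0.0235).

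**Figure D3:**
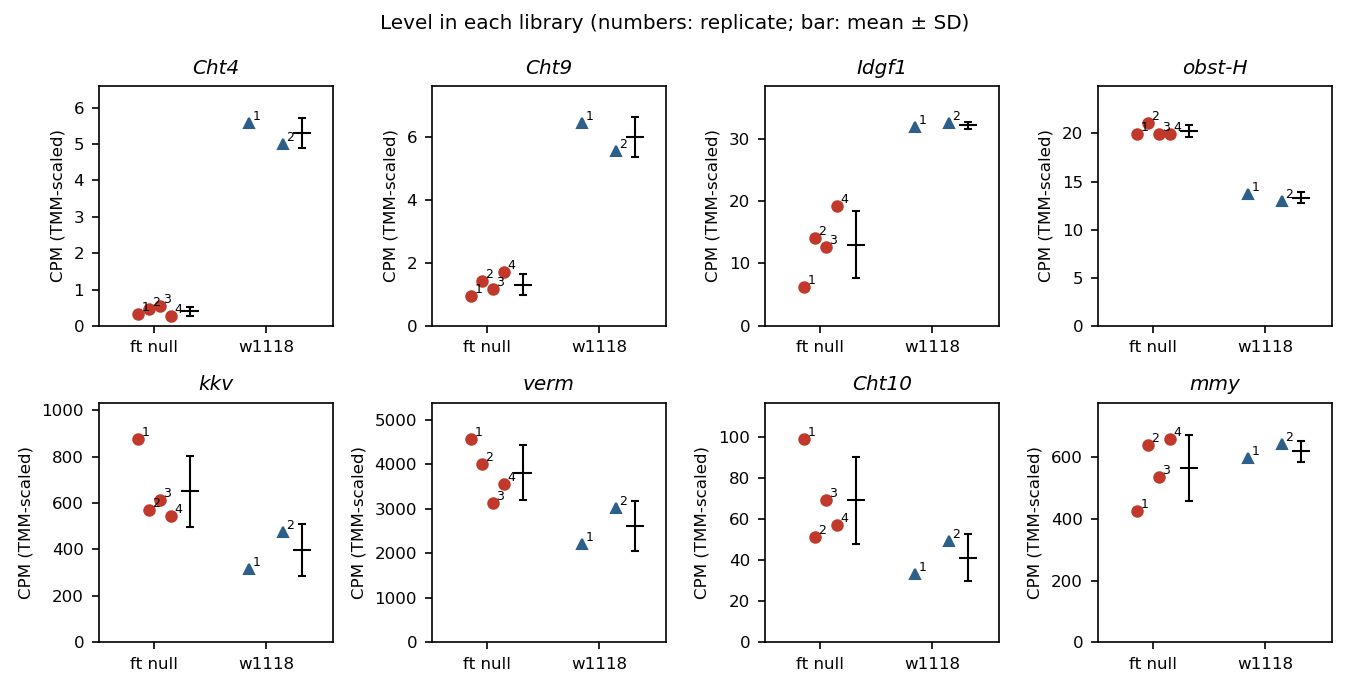
Level of 8 chitin genes in each library, in TMM-scaled CPM on axes that start at 0, with *ft* null (red circles, n = 4) left of *w1118* (blue triangles, n = 2), replicate numbers beside the points and mean ± SD as black bars. *Cht4* and *Cht9* are low in all 4 *ft* null libraries, and replicate 1 is the highest *ft* null library for *kkv*, *verm* and *Cht10* and the lowest for *mmy* and *Idgf1*.

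Among the chitin-binding genes, which comprise the obstructor family and *Gasp*, *obst-H* rose and the other 6 tested genes did not pass. *obst-H* (FBgn0053983, 3L from 15528265 to 15529243, minus strand) was at 19.9, 21.1, 20.0 and 20.0 CPM in *ft* null replicates 1 to 4, against 13.7 and 12.9 CPM in *w1118* replicates 1 and 2. The mutants were nearly alike and all lay well above both *w1118* libraries. The log2 fold change was 0.60 (SE 0.12, edgeR adjusted p = 0.0333). When single libraries were left out, *obst-H* stayed called in the absence of *ft* null replicate 1 and lost its call in the absence of each of the other 5, with log2 fold changes of 0.56 to 0.65 and adjusted p-values of up to 0.127.

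*Gasp* (FBgn0026077, 3R from 6088799 to 6100887, minus strand) was at 3386, 3384, 2440 and 2700 CPM in *ft* null, against 2233 and 1998 CPM in *w1118*. All mutants lay above both *w1118* libraries (log2 fold change 0.49, SE 0.179, edgeR adjusted p = 0.176). *obst-A*, a chitin-binding matrix gene of trachea and epidermis, was at 1235, 1129, 792 and 819 CPM in *ft* null, against 812 and 703 CPM in *w1118*. Mutant replicates 1 and 2 were high for both genes, and for *obst-A* mutant replicate 3 lay between the *w1118* values (log2 fold change 0.39, edgeR adjusted p = 0.345). The ratio of *Gasp* to *obst-A* reads ran from 2.74 to 3.30 in *ft* null, against 2.75 and 2.84 in *w1118*.

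*obst-B* and *obst-E* had mean levels of 327 and 331 CPM in *ft* null and 294 and 280 CPM in *w1118*, with log2 fold changes of 0.16 and 0.24. *obst-J* was at 51.5, 95.9, 88.0 and 101 CPM in *ft* null, against 94.7 and 104 CPM in *w1118*, with only mutant replicate 1 far below the others. *obst-F* averaged 3.31 ± 0.881 CPM in *ft* null and 3.61 ± 0.0116 CPM in *w1118*. *obst-I* held 2 to 11 reads per *ft* null library and 4 in each *w1118* library. *obst-G* held 2 reads in 1 *ft* null library and 3 in 1 *w1118* library. Neither *obst-I* nor *obst-G* entered the test.

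The chitinases held the largest differences, and these lay in a pair of neighbouring genes of low level. *Cht4* (FBgn0022700, 2R from 21065379 to 21067087, minus strand) was at 0.333, 0.456, 0.544 and 0.279 CPM in *ft* null replicates 1 to 4, against 5.59 and 5.00 CPM in *w1118*. In reads, this was 7, 10, 13 and 8 against 172 and 109. Every mutant value was about an order of magnitude below both *w1118* values, and the mean was 13.1-fold lower (log2 fold change -3.71, SE 0.285, edgeR adjusted p = 0.000527).

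*Cht9* (FBgn0034582, 2R from 21067992 to 21069286, minus strand), 0.90 kb further along with 0 genes between, was at 0.950, 1.41, 1.17 and 1.71 CPM in *ft* null, against 6.46 and 5.55 CPM in *w1118*. The genotypes were again fully apart, with a mean 4.58-fold lower in *ft* null (log2 fold change -2.18, SE 0.255, edgeR adjusted p = 0.00329). An antisense RNA covers 76.9% of the exon length of *Cht9*. It was assigned 2 to 8 reads per library, against 20 to 199 for *Cht9*. The kit does not mark strand, so where the 2 genes overlap their reads cannot be told apart. *Cht4* and *Cht9* were called in all 14 alternative fits, with log2 fold changes of -3.89 to -3.55 and of -2.35 to -2.06. The ratio of *Cht4* to *Cht9* reads was 0.350, 0.323, 0.464 and 0.163 in *ft* null, against 0.864 and 0.901 in *w1118*.

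Both genes sit in a run of 4 chitinase genes of 7.64 kb that begins with *Cht8* and *Cht12*. These were nearly silent in both genotypes. *Cht8* held 3, 8, 5 and 4 reads in *ft* null, against 10 and 6 in *w1118*, and *Cht12* held 2 reads in each *ft* null library, against 4 in each *w1118* library. In the 20 kb on either side of the run, 8 other genes were tested. They had log2 fold changes of -0.58 to 0.32, and 0 of them passed in edgeR, DESeq2 or limma voom or at an unadjusted p under 0.05 in edgeR. A quantifier that shares reads among related genes by a model leaves the separate values of such a family less certain than their counts show. The summed midgut markers were at 203 to 264 CPM in *ft* null and 237 to 287 CPM in *w1118* and overlapped between genotypes. Most of that sum came from *GATAe* (means of 162 CPM in *ft* null and 203 CPM in *w1118*) and *lab* (36.2 and 36.9 CPM). The digestive enzyme genes added little, and the most abundant of them, *Amy-p*, averaged 13.6 and 9.88 CPM. Of the 6 midgut markers tested, *Amy-d*, an amylase gene, was called (background 2.15% of all tested genes higher). It was higher in *ft* null (3.35 ± 0.608 and 1.46 ± 0.0822 CPM, log2 fold change 1.20, edgeR adjusted p = 0.0452). DESeq2 called it too (adjusted p = 0.00748), and limma voom did not (adjusted p = 0.0514). Of the 6 fits that leave out 1 library, the one lacking *ft* null replicate 1 kept that call (adjusted p up to 0.158 in the others).

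Of the other chitinases tested, *Cht11* was about as low as *Cht4* and *Cht9* in *w1118*, and *Cht2*, *Cht5*, *Cht6*, *Cht7* and *Cht10* were more abundant. They did not pass in edgeR, DESeq2 or limma voom. *Cht10*, a very large chitinase with several catalytic domains, was at 99.1, 51.5, 69.4 and 57.4 CPM in *ft* null, against 33.1 and 49.3 CPM in *w1118*. The mutants lay above both *w1118* libraries, narrowly for replicate 2, with replicate 1 the highest (log2 fold change 0.75, SE 0.282, edgeR adjusted p = 0.189). *Cht5* was at 27.3, 51.8, 57.4 and 64.7 CPM in *ft* null, against 55.9 and 94.4 CPM in *w1118*, and the genotypes overlapped (log2 fold change -0.58, SE 0.327, edgeR adjusted p = 0.372). In the same embryos the ratio of *Cht10* to *Cht5* reads was 3.63 in *ft* null replicate 1 and 0.888 to 1.21 in the other mutants, against 0.592 and 0.522 in *w1118*.

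*Cht7*, which had the highest level per length of the chitinases, was at 1123, 1116, 1070 and 1267 CPM in *ft* null, against 661 and 1070 CPM in *w1118*. *Cht6* was at 1444, 1513, 1367 and 1533 CPM in *ft* null, against 944 and 1560 CPM in *w1118*. For both, *w1118* replicate 2 lay among or beside the mutants and *w1118* replicate 1 far below (log2 fold changes 0.40 and 0.23, edgeR adjusted p = 0.296 and 0.570). Without *w1118* replicate 1 the log2 fold change was 0.10 for *Cht7* and -0.09 for *Cht6*, and without *w1118* replicate 2 it was 0.80 for *Cht7* and 0.64 for *Cht6*. *Cht2* averaged 123 ± 7.62 CPM in *ft* null and 104 ± 7.25 CPM in *w1118*, with every mutant above both *w1118* libraries, and *Cht11* 6.69 ± 0.687 and 6.60 ± 0.183 CPM.

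The chitinase-like growth factors differed among themselves. 0 of the 6 passed in edgeR and limma voom, and DESeq2 called *Idgf1* lower (background 3.92%). At an unadjusted p under 0.05 in edgeR, 1 was higher and 1 lower, against 9.92% and 10.2% of all tested genes. *Idgf1* (FBgn0020416, 2L from 16445278 to 16446793, plus strand) was at 6.18, 14.1, 12.7 and 19.1 CPM in *ft* null replicates 1 to 4, against 31.8 and 32.6 CPM in *w1118*. All mutants lay well below the *w1118* pair, and spread more among themselves than the *w1118* pair. The log2 fold change was -1.30 (SE 0.342, edgeR adjusted p = 0.078, DESeq2 adjusted p = 0.00468). It passed in edgeR without *ft* null replicate 1 (-1.07, edgeR adjusted p = 0.00894) and without *ft* null replicate 4 (-1.55, edgeR adjusted p = 0.0397). Over the 14 alternative fits its adjusted p ran from 0.00468 to 0.267, and 6 of them called it.

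*Idgf1* is the first of 3 genes in a row, followed by *Idgf2* after 0.54 kb and *Idgf3* after a further 0.40 kb. *Idgf2* was at 333, 487, 465 and 530 CPM in *ft* null, against 401 and 436 CPM in *w1118* (log2 fold change 0.12, SE 0.185). *Idgf3* was at 79.8, 109, 108 and 110 CPM in *ft* null, against 116 and 112 CPM in *w1118* (log2 fold change -0.17, SE 0.149). *Idgf1* thus made up 1.85% to 3.61% of the level of *Idgf2* in *ft* null, against 7.91% and 7.47% in *w1118* replicates 1 and 2. Of the 2 other genes tested within 20 kb of the row, 0 passed in edgeR, DESeq2 or limma voom or at an unadjusted p under 0.05 in edgeR.

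*Idgf6* and *Idgf4* were the abundant members of the family. *Idgf6* was at 1347, 1301, 1288 and 1239 CPM in *ft* null, against 1021 and 1061 CPM in *w1118*. The mutants lay above both *w1118* libraries with little spread (log2 fold change 0.31, SE 0.115, edgeR adjusted p = 0.18). *Idgf4* was at 1524, 1590, 1530 and 1456 CPM in *ft* null, against 1407 and 1485 CPM in *w1118* (log2 fold change 0.08, SE 0.117). *Idgf5* averaged 15.0 ± 4.04 CPM in *ft* null and 19.1 ± 0.0878 CPM in *w1118*, with all mutants below both *w1118* libraries, by a narrow margin for replicate 4. Fat body and hemocytes are known sources of these proteins. Summed fat body markers were at 2581 to 2926 CPM in *ft* null and 2507 to 2625 CPM in *w1118*, and 0 of 4 tested passed in edgeR, DESeq2 or limma voom or at an unadjusted p under 0.05 in edgeR. *apolpp* gave most of that sum (means of 2473 CPM in *ft* null and 2243 CPM in *w1118*), with every mutant above both *w1118* libraries. *Adh* went the other way (238 and 320 CPM), with every mutant below both. Summed hemocyte markers did not overlap, by a narrow margin, at 377 to 457 CPM in *ft* null and 282 to 370 CPM in *w1118*. Most of the sum came from *Pxn*, *srp* and *crq*, each of which overlapped between genotypes. Of the 7 hemocyte markers 0 passed in edgeR and limma voom and 1 was higher in DESeq2 (background 4.48%). At an unadjusted p under 0.05 in edgeR, 2 were higher and 1 lower, against 9.92% and 10.2% of all tested genes. The higher were *NimC4* (means of 34.4 CPM in *ft* null and 14.1 CPM in *w1118*) and *Hml* (9.10 and 2.49 CPM). The lower was *eater* (0.780 and 2.37 CPM). The part of these cells in the *Idgf* values was not tested.

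Libraries of 1 genotype also differed among themselves. *ft* null replicate 1 was the highest mutant for 12 of the 30 tested genes and the lowest for 12, shares near the 32.9% and 37.0% of all tested genes. Set against the mean of the other 3 mutants, it was 1.67-fold for *Cht10*, 1.57-fold for *rtv*, 1.52-fold for *kkv*, 1.35-fold for *obst-A* and 1.28-fold for *verm*. It was 0.378-fold for *Cda9*, 0.404-fold for *Idgf1*, 0.471-fold for *Cht5*, 0.542-fold for *obst-J* and 0.696-fold for *mmy*. In the same library the epidermal markers summed to 2057 CPM, and to between 1095 and 1359 CPM in mutant replicates 2 to 4. Of the 2057 CPM, *dyl* alone gave 1258 CPM. *Ddc* was the lowest of the mutants there, at 168 CPM, and the other epidermal markers were the highest. The tracheal markers summed to 1677 CPM in that library and to between 1162 and 1275 CPM in mutant replicates 2 to 4. Of the 1677 CPM, *uif* alone gave 1356 CPM. *uif* and *trh* were the highest of the mutants there, *pio* was the lowest, at 81.9 CPM, and *knrl*, *trn* and *btl* lay between the other mutants. The part of epidermal and tracheal cells in the values of that library was not tested.

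The *w1118* pair also differed. Replicate 1 was below replicate 2 for 20 of the 30 genes, against 48.3% of all tested genes, with ratios of 0.605 for *Cht6*, 0.617 for *Cht7*, 0.623 for *Cda5*, 0.666 for *kkv*, 0.672 for *Cht10* and 0.736 for *verm*. In the absence of *w1118* replicate 1, 0 of the 30 genes were called higher by edgeR (background 1.13%) and 3 were higher at an unadjusted p under 0.05 (background 11.5%), and the median log2 fold change was 0.09. Without both *ft* null replicate 1 and *w1118* replicate 2, which leaves *w1118* replicate 1 alone and assumes it to vary like the mutants, *kkv*, *verm*, *Cda5*, *Cda9*, *Cht6*, *Cht7* and *Cht10* were called higher and *Cht4*, *Cht9* and *Idgf1* lower. In that fit 3.99% of all tested genes were called higher and 2.79% lower.

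**Figure D4:**
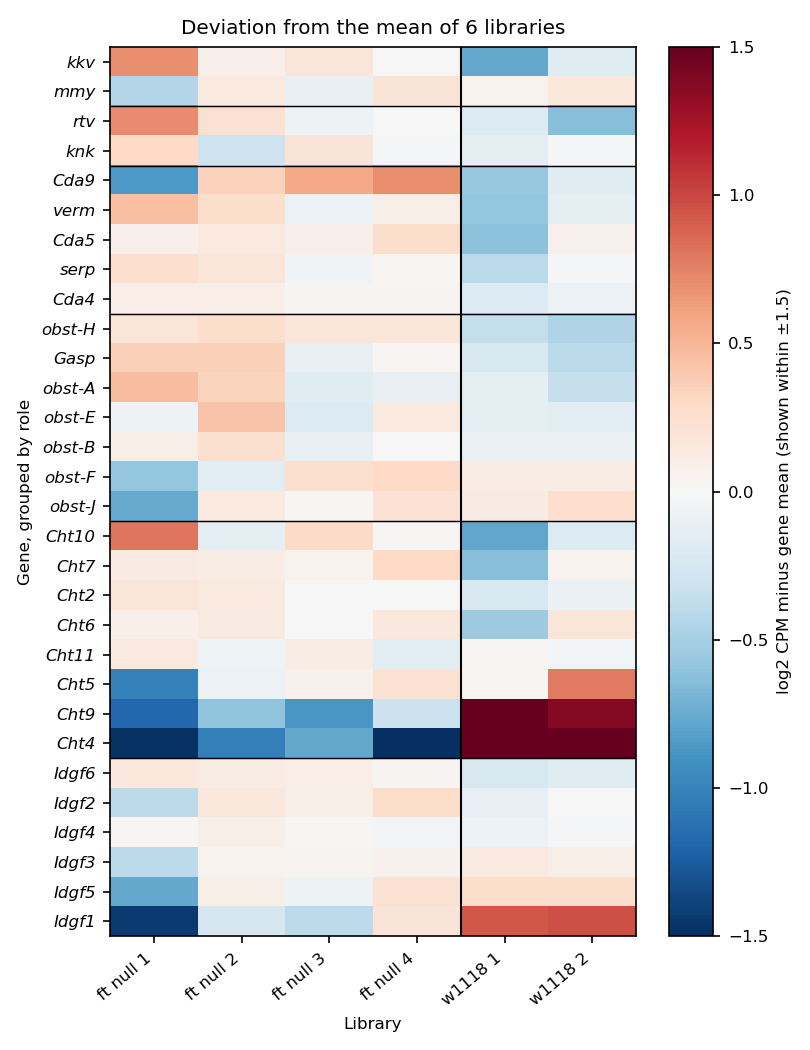
Log2 CPM of each of the 30 tested genes in each library minus the mean of that gene over the 6 libraries, with *ft* null libraries left of *w1118* libraries and genes grouped by role. Colours are shown within ±1.5. *Cht4* and *Cht9* are blue in all 4 *ft* null libraries and red in both *w1118* libraries, and *ft* null replicate 1 stands out in both directions.

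Genes around chitin metabolism that carry other names were described list by list, against the background of 2.15% of all tested genes called in each direction. At an unadjusted p under 0.05 in edgeR, the background was 9.92% higher and 10.2% lower. For calls it was 4.48% higher and 3.92% lower in DESeq2, and 2.21% and 2.33% in limma voom. These shares apply to each list and marker count below. Of 6 genes that supply UDP-N-acetylglucosamine, 0 passed in edgeR and limma voom and 1 in DESeq2, with 1 higher at an unadjusted p under 0.05 in edgeR. That was *Gfat1*, the entry enzyme of the hexosamine pathway, at 987, 1009, 1032 and 1009 CPM in *ft* null, against 741 and 819 CPM in *w1118* (log2 fold change 0.37, SE 0.115, edgeR adjusted p = 0.12). Its mutants lay well above both *w1118* libraries. Of 3 hexosaminidase genes, whose enzymes release N-acetylglucosamine from chitin fragments, 0 passed in the 3 tools, with 1 higher at an unadjusted p under 0.05 in edgeR. *Hexo2* was at 116 ± 18.5 CPM in *ft* null and 84.5 ± 0.236 CPM in *w1118* (log2 fold change 0.45, edgeR adjusted p = 0.159).

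A further list held 5 genes of chitin synthesis and of the cuticle barrier, *Chs2*, *exp*, *reb*, *snu* and *snsl*. Of these, 0 passed in the 3 tools or at an unadjusted p under 0.05 in edgeR. The most abundant was *snu*, which encodes an ABC transporter of the cuticle barrier, at 1262 ± 165 CPM in *ft* null and 1000 ± 64.0 CPM in *w1118* (log2 fold change 0.34, edgeR adjusted p = 0.263). *Chs2*, the second chitin synthase gene of the fly, averaged 17.1 CPM in *ft* null and 18.0 CPM in *w1118*.

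Of 15 further chitin-binding and mucin genes, 9 were tested and *Mur2B* fell, with 2 higher and 2 lower at an unadjusted p under 0.05 in edgeR. DESeq2 called 1 higher and 1 lower, and limma voom 1 lower. *Mur2B* was at 7.93, 7.16, 7.45 and 7.75 CPM in *ft* null, against 11.2 and 13.2 CPM in *w1118* (log2 fold change -0.69, SE 0.146, edgeR adjusted p = 0.0411). The mutants were alike and below both *w1118* libraries. Leaving out single libraries, the call survived the loss of *ft* null replicate 1 alone (adjusted p up to 0.19 otherwise). *Peritrophin-A* was at 336, 284, 192 and 228 CPM in *ft* null, against 165 and 163 CPM in *w1118* (log2 fold change 0.66, edgeR adjusted p = 0.14). Its pattern over the mutants, high in replicates 1 and 2, was also that of *Gasp* and *obst-A*.

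Regulators of cuticle and tracheal genes gave 0 calls among 12 in edgeR and limma voom and 1 lower in DESeq2, with 1 lower at an unadjusted p under 0.05 in edgeR. That gene was *Eip75B*, an ecdysone-induced nuclear receptor gene, at 115 ± 9.18 CPM in *ft* null and 172 ± 35.6 CPM in *w1118* (log2 fold change -0.57, edgeR adjusted p = 0.0684). *grh*, whose product drives many epidermal barrier genes, averaged 129 CPM in *ft* null and 141 CPM in *w1118*, *ftz-f1* 999 and 883 CPM, and the tracheal master gene *trh* 40.3 and 41.4 CPM. Of 6 tested tracheal markers, *btl*, the FGF receptor gene of the trachea, rose to 17.5 ± 1.10 CPM in *ft* null, against 9.27 ± 1.35 CPM in *w1118* (log2 fold change 0.92, SE 0.151, edgeR adjusted p = 0.016). In the absence of *ft* null replicate 3 or of *w1118* replicate 1 it did not pass (adjusted p up to 0.0789). Summed tracheal markers were at 1162 to 1677 CPM in *ft* null and 801 to 1153 CPM in *w1118*, mostly from *uif* (995 ± 244 and 568 ± 167 CPM), and did not overlap. The median log2 fold change of the list was 0.01, with 2 genes higher and 1 lower at an unadjusted p under 0.05 in edgeR. The lower one was *pio*, at 124 ± 29.8 CPM in *ft* null and 185 ± 53.4 CPM in *w1118* (log2 fold change -0.58, edgeR adjusted p = 0.247), and *trn* and *trh* had log2 fold changes of -0.06 and -0.04. DESeq2 called 2 tracheal markers higher and limma voom 1. The part of tracheal cells in the values of *verm*, *serp*, *Gasp* and *kkv* was not tested. Of the 9 epidermal markers 0 passed in the 3 tools, with 1 higher and 1 lower at an unadjusted p under 0.05 in edgeR. The higher was *sha* (means of 12.9 CPM in *ft* null and 7.30 CPM in *w1118*) and the lower *ple* (112 and 151 CPM). The median log2 fold change of the epidermal list was 0.37, against 0.22 for the chitin genes. Its sums, at 1095 to 2057 CPM in *ft* null and 1095 to 1247 CPM in *w1118*, overlapped. The part of epidermal cells in the values of the chitin genes was not tested. The 5 neuronal and the 5 muscle markers gave 0 calls in edgeR and limma voom, and DESeq2 called 1 muscle gene lower, with 1 of each list lower at an unadjusted p under 0.05 in edgeR.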

How the data were processed

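The file that the authors deposited is a table with 1 column of raw estimated counts for each library. The submitters' processing notes name FastQC 0.10, Trimmomatic 0.33, Salmon 1.80, edgeR and build dm6, and the sources used here give neither options nor annotation release. The kit named in the labels' protocols (SMARTer Ultra Low, 10 ng of RNA) marks neither strand nor molecules. Non-integer values, 29.7% to 36.1% of a library, were rounded. After filterByExpr and TMM scaling, edgeR 4.0.16 in R 4.3.3 fitted genotype alone over the 6 libraries. Its quasi-likelihood F test gave p-values, which the Benjamini-Hochberg method adjusted over 11542 genes, with calls under 0.05. Standard errors are log2 fold changes divided by the square root of F. DESeq2 1.42.0, limma voom 3.58.1 and 12 further settings were tried, and the fits were run first on simulated counts. The replicate block fits of all libraries and of replicates 1 and 2 alone draw the genotype effect from the same libraries. Exon lengths and positions are those of Ensembl release 115 (BDGP6.54, in dm6 coordinates), in which 17083 of 17208 genes were found. Every gene of the name rule is reported. Values in each library are given for genes at an unadjusted p under 0.05, for the most abundant gene of each role and for others chosen after their values were seen. The gene groups and lists were chosen with earlier results of these data known and none was tested as a set. The list entry *dys* matched no symbol in the table. Whether libraries stem from separate collections is not stated in the labels, so the spread behind the p-values is that between these libraries and may be technical. At 21261928 to 29151981 counts a library, levels under 1 CPM rest on few reads.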

Additional observations from a re-analysis of the deposited data

Results flagged for a closer look

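Among the 34 genes, 3 had 1 *ft* null library far from the other 3 relative to their range, a gap that chance gives in about 1 of 20 groups. Some such gaps are therefore due by chance among 34 genes. *Idgf3* was at 79.8 CPM in *ft* null replicate 1, below the other mutants. *obst-H* was at 21.1 CPM in *ft* null replicate 2, above the other mutants, which lay within 0.1 CPM of each other. *obst-G* was at 0.0913 CPM in *ft* null replicate 2, which is 2 reads, and at 0 in the other mutants. A gene with reads in 1 mutant library alone always meets this rule, so the flag of *obst-G* was fixed in advance.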

How the results depend on the processing

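Against 1 chitin gene called higher and 2 lower, DESeq2 called 2 and 3, and leaving out 1 library gave 0 to 2 higher and 2 to 3 lower. Replicates 1 and 2 alone gave 0 higher, against 1.16% of all genes, and the fit without both *ft* null replicate 1 and *w1118* replicate 2 gave 7 higher. Over all genes, against 248 in each direction, DESeq2 called 517 higher and 453 lower, replicates 1 and 2 alone 131 and 117, leaving out 1 library 101 to 425 and 72 to 381, and leaving out both named libraries 477 higher. Calls in the related lists, 3 at first, were 9 in DESeq2, 1 with replicates 1 and 2 alone, 0 to 8 with 1 library left out and 7 without both. The median log2 fold change was 0.0878 to 0.26 with 1 library left out. The replicate block gave 0 chitin genes higher, 4 lower (*Cht4*, *Cht9*, *Idgf1* and *Cht5*) and 5 calls in the lists, with all libraries and with replicates 1 and 2. Of all genes, 1.83% were called higher and 2.11% lower in that fit of all libraries, and 2.04% and 2.32% with replicates 1 and 2. Replicates 3 and 4 exist in *ft* null alone, so with the block the genotype effect rests on replicates 1 and 2 in both fits. The 2 block fits are thus nearly 1 setting, with a log2 fold change of *kkv* of 0.865 in both. Their match is no separate check, though each is counted singly among the alternative fits and the values below. Deviations of same-numbered libraries from their genotype means correlated at 0.153 and -0.0407. The deviations of the 2 *w1118* libraries are equal and opposite, so these values cannot decide whether the shared numbers pair libraries. Of 420 values of single genes, 382 kept direction and side of the threshold, 17 newly passed, 9 lost a call, all of *obst-H*, and 12 turned sign, in genes that were not called. These were *Cht11* (-0.0295 to 0.0761 with 1 library left out, -0.0665 without both), *Cht6* (-0.0913 to 0.64), *obst-F* (-0.24 to 0.0284, and 0.0226 without both), *Cht5* (0.0428 without both), *mmy* (0.0267 without both) and *Idgf2* (-0.0550 and -0.0554 with the replicate block, -0.0309 with replicates 1 and 2 alone). The cause was not tested. Low counts limit *Cht8*, *Cht12*, *obst-G* and *obst-I*, which were not tested.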
